A study of Mus musculus with 7 samples.

Results

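Fxyd2 encodes the gamma subunit of the sodium pump. It was examined together with 4 further genes of the pump and of its regulatory family, namely Fxyd5, Fxyd6, Atp1b1 and Atp1b3. The 5 genes were found by matching the Ensembl IDs of the deposited tables to these symbols, and they are 5 of the 24084 genes listed in at least 1 library. Fxyd2 was picked because it was lower in Dicer1-deleted macrophages. The levels of the 5 genes in that comparison are therefore given as a description, and the calls of the fit over all genes are given for them only as a count from which nothing is read.

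RNA was measured in tumor-associated macrophages, which were sorted as F4/80+ cells from Lewis lung carcinoma (LLC) tumors grown under the skin of mice. There were 3 libraries of LysM-Cre;Dicer–/– mice and 4 of LysM-Cre;Dicer+/+ mice, which served as controls. In the first group both copies of Dicer1, the gene of the ribonuclease that makes mature microRNAs, carried the lox allele and were deleted where Cre was active. Both groups were homozygous for LysM-Cre, a Cre recombinase driven from the lysozyme M locus in cells of the myeloid lineage, so the controls carried the driver as well. The labels give neither the age of the mice nor whether each library came from its own animal, and any test therefore measures the spread between these libraries, which may be technical.

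The sodium pump moves sodium out of the cell and potassium into it at the cost of ATP. Its alpha subunit binds the ions and splits ATP, and its beta subunit, a glycoprotein, is needed for folding and delivery of the pump to the cell surface. Small membrane proteins of the FXYD family bind to the pump and tune its affinity for ions. Fxyd2 is best known from the tubules of the kidney, where it modulates the pump of salt-transporting epithelium.

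The FXYD family is named after the residues phenylalanine, any amino acid, tyrosine and aspartate, which lie just before the membrane span. The coding stretch that holds this signature is shown for the 3 family members studied, because it is the feature by which they belong together. The sequences run 5′ to 3′ on the coding strand of GENCODE mouse release 21 transcripts (GRCm38), and the capitals mark the 4 signature codons.
Fxyd2: gagaatcccTTCGAGTACGACtatgaaacc
Fxyd5: aacaaccccTTCTACTACGATgatactacc
Fxyd6: aaggatcctTTCTATTACGACtaccagacc
The search was for TTT or TTC, any codon, TAT or TAC, and GAT or GAC, read in frame on the coding strand only. The signature starts at codon 17 of Fxyd2, codon 136 of Fxyd5 and codon 29 of Fxyd6. Among coding sequences of like length the same signature was present in 1.15% of 260, 1.02% of 2838 and 0.82% of 853. These shares count each gene itself and FXYD relatives of like length. Those of Fxyd2 and Fxyd6 therefore do not show how often other genes carry the signature. The coding sequence of Fxyd5 has 555 bases, against 192 to 297 in the rest of the family. At its length the signature thus also occurs outside the family.

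Fxyd2 and Fxyd6 are neighbors on the plus strand of chromosome 9. Fxyd2 (ENSMUSG00000059412) lies at chr9:45399669-45410278 and Fxyd6 (ENSMUSG00000066705) at chr9:45370185-45396159, with 3509 bases between them. No other annotated gene overlaps Fxyd2, for which 13 transcripts are annotated, 4 of them coding. Reads that fit several genes, each added as a fraction, made up only 0.00498% of its count over all libraries.

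Fxyd2 RNA was abundant in control macrophages and much lower in Dicer1-deleted ones. Control replicates 1 to 4 had 254, 325, 178 and 217 counts-per-million (CPM) of Fxyd2, after TMM scaling, which corrects for the share taken by a few dominant genes. Dicer1-deleted replicates 1 to 3 had 27.2, 28.5 and 43.2 CPM. The highest Dicer1-deleted library, replicate 3, was still far below the lowest control library, replicate 3, and the groups did not overlap. These values rest on 9512 to 14496 uniquely placed reads per control library and on 1122 to 2026 reads per Dicer1-deleted library. Control macrophages held 7.38-fold more Fxyd2 RNA, a difference of -2.88 ± 0.34 (SE) on the log2 scale for Dicer1-deleted minus control. In bulk RNA, fewer cells that carry a transcript and less of it per cell cannot be told apart.

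The controls varied in Fxyd2 about as other genes of its level did. The coefficient of variation over the 4 control libraries was 25.7%, against a median of 24.7% over the 1164 genes within 2-fold of its level. By control CPM Fxyd2 ranked 664th of all genes. Of the 10317 genes with a mean of at least 5 CPM, 22 (0.21%) had a log2 fold change as low as that of Fxyd2 or lower, a rank that the choice of Fxyd2 fixed.

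Fxyd6, also known as phosphohippolin, was practically undetected. A single read pair, counted as 2 reads, was placed on it in control replicate 1 (0.0419 CPM), and no read in the other 6 libraries. A count of 0 allows up to 3 read pairs, counted as 6 reads, or 0.117 to 0.140 CPM without TMM scaling, depending on the library, and covers counting error only. Fxyd6 did not pass the filter on low counts, and no fold is given. The gene next to Fxyd2 on the same strand thus had almost no reads in either genotype.

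Fxyd5, or dysadherin, modulates the pump and cell adhesion, and it was the most abundant of the 5 genes. Fxyd5 (ENSMUSG00000009687) lies at chr7:31032722-31042481 on the minus strand and holds the microRNA gene Mir7050 within it. Its level was 2267, 2289.6, 1305 and 1690.1 CPM in control replicates 1 to 4. In Dicer1-deleted replicates 1 to 3 it was 1218, 3441 and 1155 CPM. Replicate 2 was above all controls and the other 2 were below them, so the groups overlapped and the Dicer1-deleted libraries disagreed in direction. The log2 fold change was 0.04 ± 0.44 (SE), and without Dicer1-deleted replicate 2 it was -0.68 ± 0.29. Its sign was also negative when libraries were not scaled by TMM (-0.07).

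**Figure D1:**
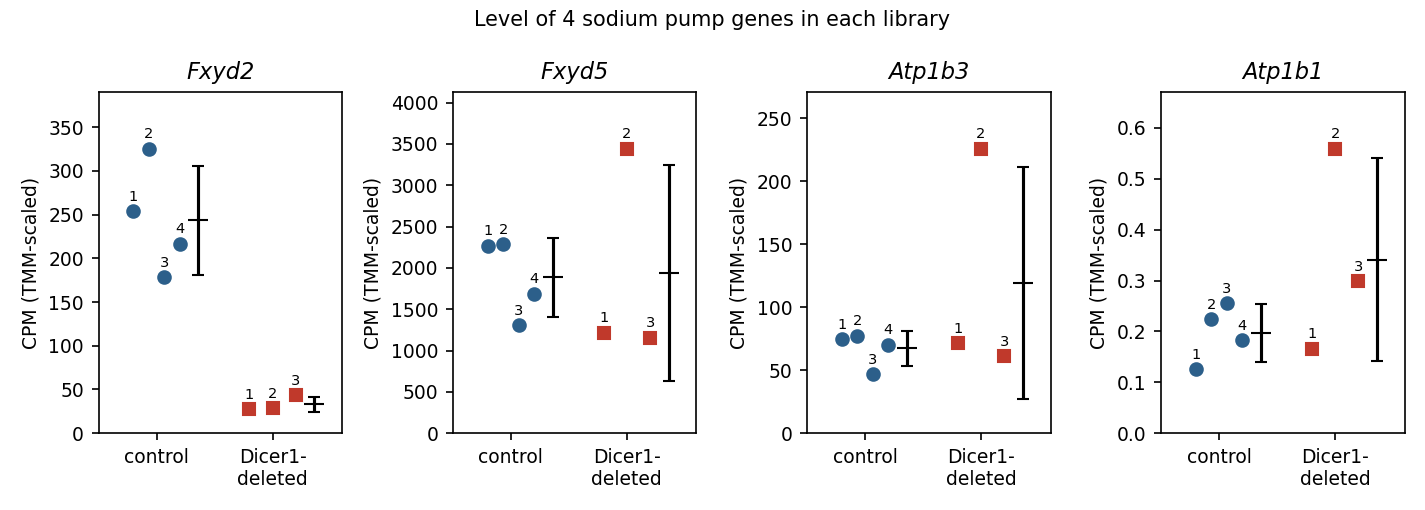
Level of 4 sodium pump genes in CPM (TMM-scaled, linear axis from 0, each gene on its own scale) in 4 control libraries (circles) and 3 Dicer1-deleted libraries (squares), numbered by replicate, with the mean ± SD as a black bar. Fxyd2 separates the groups (178 to 325 against 27.2 to 43.2 CPM), whereas Fxyd5 and Atp1b3 are highest in Dicer1-deleted replicate 2.

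Atp1b3 encodes the beta-3 subunit of the pump, and it carried nearly all beta subunit RNA in these cells. Atp1b3 (ENSMUSG00000032412) lies at chr9:96332655-96364442 on the minus strand. Its level was 74.5, 77.4, 46.9 and 70.2 CPM in control replicates 1 to 4. In Dicer1-deleted replicates 1 to 3 it was 71.3, 226 and 61.1 CPM. Replicates 1 and 3 lay within the control range, and replicate 2 alone exceeded it. The log2 fold change was 0.83 ± 0.45 (SE) with all libraries and -0.03 ± 0.27 without Dicer1-deleted replicate 2.

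Atp1b1 encodes the beta-1 subunit, the widespread beta subunit of epithelia, and it was close to the limit of detection. Atp1b1 (ENSMUSG00000026576) lies at chr1:164437109-164458355 on the minus strand. It received 6, 10, 14 and 8 reads in control replicates 1 to 4 and 8, 22 and 14 reads in Dicer1-deleted replicates 1 to 3. The levels were 0.126 to 0.255 CPM in controls and 0.166 to 0.559 CPM in Dicer1-deleted libraries, which overlapped. The log2 fold change was 0.78 ± 0.75 (SE). Nme7 on the other strand overlaps Atp1b1 by 617 bases and had 11.4 to 18.5 CPM in controls and 9.96 to 14.4 CPM in Dicer1-deleted libraries. The kit keeps no strand, so reads of Atp1b1 and of Nme7 in the shared stretch cannot be told apart.

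**Figure D2:**
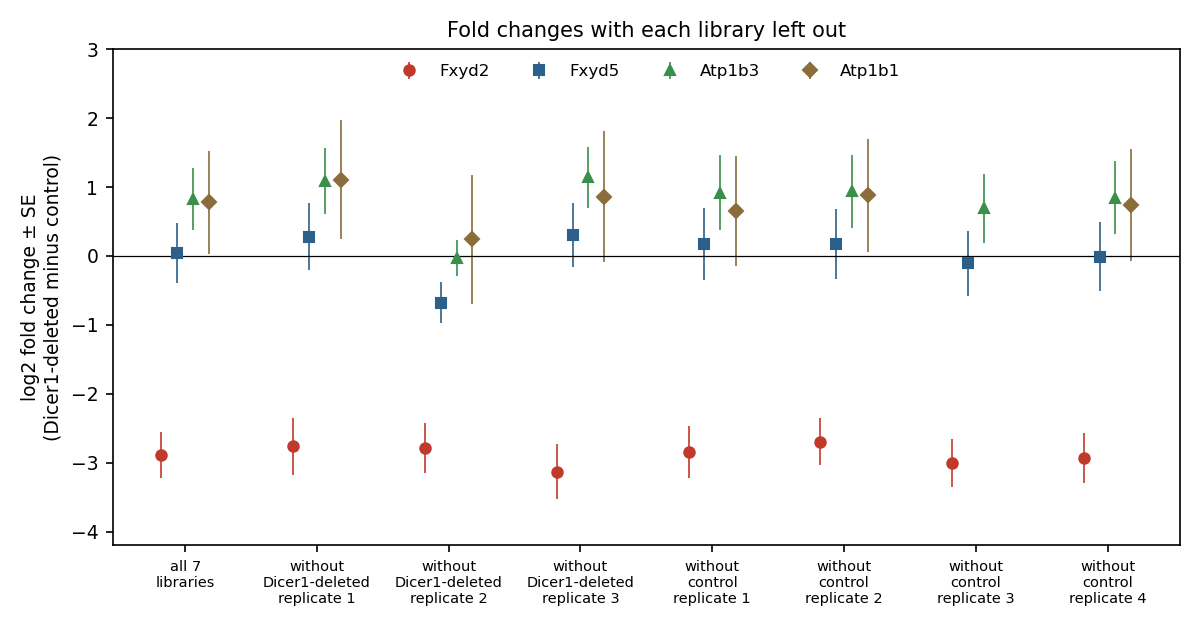
Log2 fold change (Dicer1-deleted minus control) ± SE of Fxyd2, Fxyd5, Atp1b3 and Atp1b1 with all 7 libraries and with each library left out in turn. Fxyd2 stays between -3.13 and -2.69, while Fxyd5 and Atp1b3 drop to -0.68 and -0.03 without Dicer1-deleted replicate 2, and Atp1b1 could not be fitted without control replicate 3.

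Across all genes, Dicer1-deleted replicate 2 stood apart by transcript length. Genes whose longest annotated transcript is under 1000 bases (2721 genes) were shifted in it by a median of 0.66 on the log2 scale from their mean over the 7 libraries. The same median was -0.35 to 0.30 in the other 6 libraries. Genes with transcripts over 4000 bases (4595 genes) were shifted by -0.29 in Dicer1-deleted replicate 2.

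The members were shifted in different directions in that library from their means over all libraries, which span both groups. Their longest annotated transcripts have 1694 bases for Fxyd2, 2998 bases for Fxyd5 and 1994 bases for Atp1b3. The median coding transcript has 650 bases for Fxyd2 and 803 bases for Fxyd5, both under 1000 bases. The shares and the correction below use the longest transcript, so they may place Fxyd2 and Fxyd5 in the wrong length class. Relative to its own mean over all libraries, Atp1b3 was shifted by 1.52 in Dicer1-deleted replicate 2, at or above which were 3.4% of the 2637 genes with transcripts of 1000 to 2000 bases. Fxyd5 was shifted by 0.96, at or above which were 7.8% of the 5370 genes with transcripts of 2000 to 4000 bases. Fxyd2 was shifted by -1.82 there, close to its -1.89 in replicate 1 and below its -1.22 in replicate 3. These Fxyd2 values hold the difference between the groups by which it was picked, and are not particular to replicate 2. A correction for the trend of each library with the longest transcript was added after seeing the data. With it the log2 fold change was 0.17 ± 0.49 (SE) for Fxyd5, 0.90 ± 0.45 for Atp1b3 and -2.82 ± 0.29 for Fxyd2. Without Dicer1-deleted replicate 2 and with no correction, that of Fxyd2 was -2.79 ± 0.37.

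Fxyd5 and Atp1b3 varied together within the groups. Their log2 levels, taken as deviations from the mean of each group, had a Pearson correlation of 0.98 over 7 libraries, and of 0.91 over the 6 libraries without Dicer1-deleted replicate 2. The corresponding correlation of Fxyd2 over 7 libraries was 0.08 with Fxyd5 and -0.06 with Atp1b3. Both values include Dicer1-deleted replicate 2, where Fxyd5 and Atp1b3 were highest, and were not computed without it. They therefore do not show whether Fxyd2 varied with these genes in the other libraries. These coefficients describe libraries that share the length trend, and no test was made of them.

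Levels of different genes were compared per length on the authors' RPKM scale. In controls the order was Fxyd5 (443 ± 96.9 RPKM, SD, n = 4), Fxyd2 (237 ± 49.9), Atp1b3 (35.3 ± 6.12) and Atp1b1 (0.08 ± 0.026). Each of these 4 ranges was separate from the next. In Dicer1-deleted libraries Fxyd5 led with 421 ± 232 RPKM (SD, n = 3), and Atp1b3 followed with 57.5 ± 37.7. Fxyd2 came to 31.5 ± 10.9 RPKM there, with values of 26.9, 23.6 and 43.9. Its range overlapped that of Atp1b3, whose values were 38.0, 100.92 and 33.4 RPKM. On this scale these neighbors did not differ beyond their spread. The lengths behind the RPKM values are not stated. Per kilobase of all annotated exons the control level of Fxyd2 was 60.8 CPM, and per kilobase of its longest transcript it was 144 CPM, with the same order of the 4 genes. In the Dicer1-deleted libraries Fxyd2 had 6.79, 7.12 and 10.8 CPM per kilobase of all exons, below Atp1b3 with 29.8, 94.5 and 25.6. Per kilobase of the longest transcript Fxyd2 had 16.1, 16.8 and 25.5 CPM there, again below Atp1b3 with 35.7, 113 and 30.7. Whether their ranges overlap thus depends on the length used.

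Set against Fxyd5 and Atp1b3 in the same library, Fxyd2 was again low in each of the 3 Dicer1-deleted libraries. The RPKM ratio of Fxyd2 to Fxyd5 was 0.464 to 0.589 in controls and 0.0343 to 0.155 in Dicer1-deleted libraries. Control libraries varied little in this ratio (0.538 ± 0.0545, SD, n = 4), in which Fxyd2 ran at about the same share of Fxyd5 in each. The RPKM ratio of Fxyd2 to Atp1b3 was 6.32, 7.80, 7.05 and 5.73 in control replicates 1 to 4 and 0.708, 0.234 and 1.31 in Dicer1-deleted replicates 1 to 3. Both ratios are of RNA, and they use the measure by which Fxyd2 was picked.

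**Figure D3:**
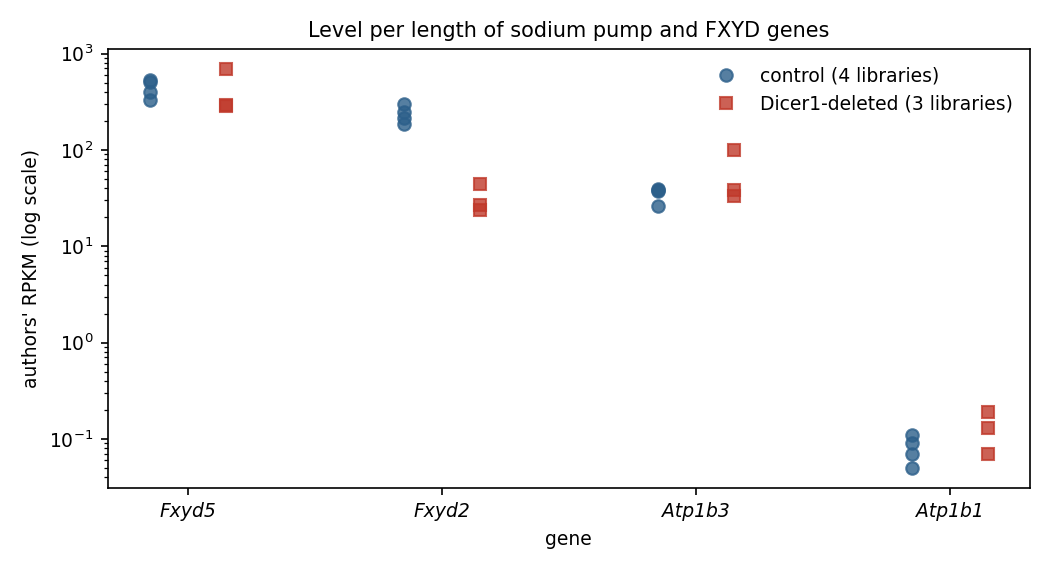
Level per length of 4 sodium pump and FXYD genes in the authors' RPKM (log axis), with 4 control libraries as circles and 3 Dicer1-deleted libraries as squares. Fxyd2 lies between Fxyd5 and Atp1b3 in controls (185 to 301 RPKM) and beside Atp1b3 in Dicer1-deleted libraries (23.6 to 43.9 RPKM).

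Of the other genes of the FXYD family and the pump, those described had low levels. Fxyd4, a regulator known from the kidney collecting duct and colon, had 0.583 to 1.13 CPM in controls and 0.457 to 1.45 CPM in Dicer1-deleted libraries, with a log2 fold change of 0.12 ± 0.56 (SE), and passed in neither edgeR nor DESeq2. The muscle genes Atp1b4 and Fxyd1, the brain gene Fxyd7 and the gastric proton pump gene Atp4a had at most 28 reads in any library, and Fxyd3 had none placed uniquely.

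Among the 5 genes themselves, 4 could be tested across all genes, and 1 of them, Fxyd2, passed an adjusted p of 0.05 in edgeR and in DESeq2. Over all 16226 genes tested, 4 passed in edgeR (0.0247%), 1300 had an unadjusted p under 0.05 (8.01%), and DESeq2 called 2.50%. The share of all genes called lower was 0.0185% in edgeR and 1.57% in DESeq2, and the share called higher was 0.00616% and 0.925%. Groups without overlap were found for 1 of the 4, in the lower direction, against 9.31% of all genes in either direction and 5.44% in the lower one. Because Fxyd2 was picked on this contrast, nothing is read from these counts. The edgeR call of Fxyd2 was lost whenever any 1 of the 7 libraries was left out, under a filter of 10 CPM in 3 libraries and with the L code of the sample titles as a covariate, while its fold change ranged from -3.13 to -2.69 on the log2 scale.

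Of 16 regulators of the pump, which include kinases, ubiquitin ligases and transcription factors of ion balance, 12 were listed and 10 tested. None passed in edgeR or DESeq2, and 2, Nedd4l and Nkain1, had an unadjusted p under 0.05 in edgeR, against 8.01% of all genes. The median log2 fold change was -0.24, against 0.03 over all genes, with 4 of 10 positive. Nedd4l, a ubiquitin ligase that removes sodium channels from the surface, had 6.88, 8.35, 9.55 and 16.2 CPM in control replicates 1 to 4 and 5.81, 5.64 and 5.34 CPM in Dicer1-deleted replicates 1 to 3. All Dicer1-deleted libraries lay below all controls (log2 fold change -0.87 ± 0.34, SE), which held for 1 of the 10 regulators and for 5.44% of all genes. Sgk1, a salt-responsive kinase that raises pump activity, was the most abundant regulator and varied widely, at 505 ± 351 CPM in controls and 382 ± 224 in Dicer1-deleted libraries (SD, n = 4 and 3). Wnk1, Sgk3 and Nfat5 had log2 fold changes of 0.09, 0.11 and -0.07, and the kinase Sik1 one of -0.79 ± 0.36 (SE).

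In the group of sodium and potassium channels, exchangers and cotransporters, 34 of 40 genes were listed and 29 tested. None passed in edgeR, 5 had an unadjusted p under 0.05 (background 8.01%), and 3 passed in DESeq2 (background 2.50%). The median log2 fold change was 0.11, with 18 of 29 positive, and 4 genes were higher and 2 lower without overlap (background 3.86% and 5.44%). Trpm2, a calcium-permeable cation channel gated by ADP-ribose and known from phagocytes, had 7.67, 11.5, 6.45 and 12.5 CPM in control replicates 1 to 4. In Dicer1-deleted replicates 1 to 3 it had 27.2, 33.8 and 19.98 CPM. All Dicer1-deleted libraries exceeded all controls, with a log2 fold change of 1.5 ± 0.32 (SE), an adjusted p of 0.156 in edgeR and 0.00253 in DESeq2.

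The 2 other DESeq2 calls of this group were exchangers of sodium. Slc9a4, a sodium/proton exchanger known from the stomach, had 6.96, 6.06, 10.4 and 15.4 CPM in control replicates 1 to 4 and 1.79, 0.762 and 0.598 CPM in Dicer1-deleted replicates 1 to 3. It was lower without overlap, with a log2 fold change of -3.21 ± 0.53 (SE, adjusted p of 0.111 in edgeR and 4.24e-07 in DESeq2). Slc8a1, the sodium/calcium exchanger known from heart muscle, went the other way, from 2.59 ± 0.789 to 8.01 ± 1.78 CPM (SD, n = 4 and 3). Its log2 fold change was 1.63 ± 0.34 (SE), with an adjusted p of 0.156 in edgeR and 0.0012 in DESeq2. Slc8a1 is named outside the rule for named genes, after its values were seen. The most abundant members of the group were P2rx4, an ATP-gated channel, Trpv2, Kcnn4 and Slc12a7, with log2 fold changes of 0.69, -0.07, -0.07 and 0.26.

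Of 14 other P-type ATPases, the wider family of ion pumps to which the sodium pump belongs, 13 were listed and 9 tested. None passed in edgeR or DESeq2 and none had an unadjusted p under 0.05 in edgeR (8.01% of all genes). The median log2 fold change was 0.21, with 7 of 9 positive. Atp13a2, a pump of lysosomes, was at 31.8, 32.2 and 31.8 CPM in Dicer1-deleted replicates 1 to 3. It was at 16.1, 29.3, 20.7 and 24.2 CPM in control replicates 1 to 4 (log2 fold change 0.50 ± 0.26, SE). It was thus higher without overlap, which held for 1 of the 9 genes tested and for 3.86% of all genes. The calcium pump Atp2b4 had a log2 fold change of -0.64 ± 0.33 (SE). Atp2b1, Atp7a, Atp2a2 and Atp13a3 had values of 0.19, 0.38, 0.13 and 0.26.

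**Figure D4:**
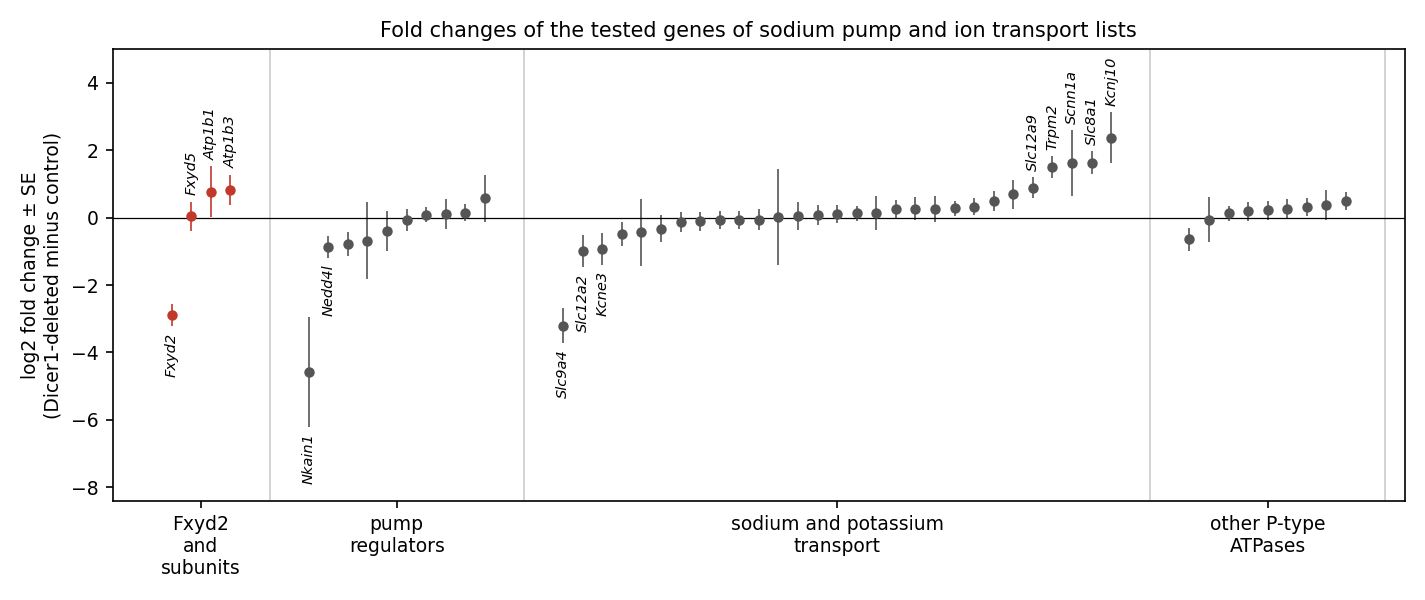
Log2 fold change (Dicer1-deleted minus control) ± SE of each tested gene of the 4 lists, sorted within a list, with Fxyd2 and the other subunits studied in red and genes beyond 0.8 named. Nkain1, which has no read in 3 of 7 libraries and the widest error, Slc9a4 (-3.21) and Fxyd2 (-2.88) are the 3 lowest of the genes shown.

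The genes whose pattern over the 7 libraries was most like that of Fxyd2 were Ppip5k1, Avpi1, Galnt9, Anxa1 and Bcar3. Likeness was the Pearson correlation of log2 CPM with Fxyd2 among 8796 genes with a mean of at least 5 CPM and a symbol other than that of a predicted gene, and it was 0.999, 0.987, 0.981, 0.98 and 0.978 for these 5. All 5 were lower in Dicer1-deleted libraries, with log2 fold changes of -0.71 for Ppip5k1, -1.0 for Avpi1, -2.69 for Galnt9, -1.14 for Anxa1 and -1.09 for Bcar3. The choice of Fxyd2 fixed this direction, because the difference between the groups drives a correlation over all 7 libraries. Anxa1 was the most abundant, at 3180 to 3653 CPM in controls and 1368 to 1751 CPM in Dicer1-deleted libraries. With the group means removed, the most like genes were Ppip5k1 (0.987), Ppp1r8 (0.976), Zdhhc24 (0.971), Golim4 (0.965) and Prkag1 (0.963). Ppip5k1 was the 1 gene in both sets. With rank correlation, 0 of the first 5 and 1 of the second 5 came up again, so these names depend on the measure.

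Mature microRNAs pair through their seed, bases 2 to 8, with matching sites in 3' UTRs. Because the groups differ in the enzyme that makes microRNAs, the longest annotated 3' UTR of each of the 5 genes was searched on the coding strand for the 7-base matches of 16 microRNAs known from myeloid cells. The 2 microRNAs with matches in the abundant Fxyd5 and Atp1b3 are shown first, as given by RefSeq with the seed in capitals, followed by the sites on the coding strand (GENCODE release 21), with the match in capitals.
let-7a-5p: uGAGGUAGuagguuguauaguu
miR-181a-5p: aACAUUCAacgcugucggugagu
Fxyd5 site 1: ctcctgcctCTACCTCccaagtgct
Fxyd5 site 2: actccacgtCTACCTCtggtggggg
Atp1b3 site: taaattaggTGAATGTgcaccgatt
Fxyd2 had no match in its 3' UTR of 293 bases, and Fxyd6 none in 1198 bases. Depending on the microRNA, a match is present in 1.1% to 6.6% of 1799 3' UTRs of like length to that of Fxyd2. For Fxyd6 the shares are 4.5% to 20.5% of 3071. No match to a given microRNA is thus the usual outcome at both lengths. The matches of Fxyd5 lie at chr7:31034425-31034431 and chr7:31034001-31034007, in its longest annotated 3' UTR of 2411 bases. The median coding transcript of Fxyd5 has only 803 bases, so not every transcript holds this 3' UTR. A let-7a match is present in 14.2% of 2862 3' UTRs of like length. The match of Atp1b3 lies at chr9:96332822-96332828 in a 3' UTR of 869 bases, and 12.2% of 2841 like 3' UTRs hold one. Atp1b1 held 1 match each for miR-223-3p, miR-29a-3p and miR-181a-5p in 1167 bases. Such matches are present in 5.9%, 11.6% and 15.5% of 3088 like 3' UTRs. A match is not evidence that a site is used, and no match says only that these letters are not in the window searched.

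The deposited libraries held 42974524 to 51152370 uniquely placed reads. Dicer1 itself was at 6.86 to 7.85 CPM in Dicer1-deleted libraries and at 15.7 to 18.6 CPM in controls, without overlap. The 12 macrophage markers summed to 13668 to 20880 CPM in Dicer1-deleted libraries and 14301 to 21605 CPM in controls. Of these 12, 7 had a positive log2 fold change and 2, Lyz2 and Cd14, were lower without overlap (5.44% of all genes). Lyz2, the gene that carries the Cre driver in both groups, had 57.0 ± 8.97 against 139 ± 50.6 CPM (SD, n = 3 and 4). Cd14 had 3138 ± 623 against 4428 ± 189 CPM. None of the 12 passed in edgeR, and 1, Lyz2, passed in DESeq2 (2.50% of all genes). Fcgr1 was higher with overlap (log2 fold change 0.913 ± 0.375, SE).

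Markers of other cell types were set beside the Fxyd2 difference. Of 10 markers of kidney epithelium, the tissue for which Fxyd2 is best known, 4 were listed, with sums of 0.0427 to 0.166 CPM in Dicer1-deleted libraries and 0 to 0.461 CPM in controls, while Umod, Slc12a1, Pkhd1, Aqp2, Lrp2 and Kap were not listed in any library. Epithelial and tumor markers summed to 5.79 to 9.09 CPM against 2.29 to 14.1 CPM in controls, with Epcam at 0 to 0.126 CPM over all libraries. Much of this sum was Cdh1 (4.32 to 8.32 against 1.21 to 12.5 CPM). Of 4 tested, none passed in edgeR or DESeq2, and 2 were lower without overlap (5.44% of all genes). These were Krt7 (0 to 0.203 against 0.359 to 1.43 CPM) and Krt18 (0.102 to 0.171 against 0.293 to 0.620 CPM). Krt8 went the other way with overlap (log2 fold change 1.09 ± 0.71, SE). Sums for dendritic cells (67.8 to 116 against 45.4 to 165 CPM), neutrophils (51.1 to 104 against 32.5 to 81.7), mast cells and basophils (0.152 to 2.95 against 1.12 to 3.72) and fibroblasts (19.98 to 29.3 against 16.3 to 33.7) overlapped between the groups. Of 8 dendritic cell markers tested, none passed in edgeR, 5 had an unadjusted p under 0.05 (8.01% of all genes), and 3 passed in DESeq2 (2.50%). The DESeq2 calls were Xcr1 (log2 fold change 2.40) and Irf8 (1.27), which were higher, and Ccr7 (-3.25), which was lower. These 3 did not overlap between the groups, nor did Clec9a (2.00, higher), which DESeq2 did not call. Of all genes, 3.86% were higher and 5.44% lower without overlap. The other marker with an unadjusted p under 0.05 was Cd209a (-3.86 ± 1.26, SE), lower with overlap and not called by DESeq2. The sums of T and NK cell markers (10.98 to 23.5 against 7.80 to 10.4 CPM), B cell markers (112 to 156 against 35.7 to 79.3) and endothelial markers (43.3 to 77.1 against 8.08 to 24.4) were higher in Dicer1-deleted libraries without overlap. Most of the endothelial sum was Pecam1 (36.3 to 69.6 against 3.23 to 11.9 CPM), and no marker list was lower without overlap. The part of these cells in the differences of Fxyd2 and the other genes was not tested.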

How the data were processed

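RNA-seq libraries of 3 Dicer1-deleted and 4 control samples were analysed. Per the file headers, the deposited tables hold counts of uniquely placed reads, RPKM values made by the authors, and expected counts in which reads that fit several genes add a fraction to each. The counts were all even, so both mates were counted. Bowtie2 is named per the submitters' processing notes, and its version, the counting tool, annotation and genome build were not given in the sources used here. Per the labels' protocols, cDNA came from the SMARTer ultra low kit and libraries from Nextera XT.

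IDs were matched to GENCODE mouse release 21 (GRCm38), which gave 21828 a symbol and 2256 none. Unlisted genes were set to 0. The unique counts were fitted in edgeR 4.0.16 (R 4.3.3) by the quasi-likelihood F test after TMM scaling, for the 16226 genes that passed filterByExpr, with a threshold of 0.05 on p-values adjusted over all of them by Benjamini-Hochberg. The fit was tested on simulated data. The biological coefficient of variation was 45.1%, which limits precision more than depth does, and without molecular identifiers reads are not independent molecules. The expected counts, rounded, served as an alternative.

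The members and gene lists were chosen with earlier results of these data known. Named genes are the 5 members, Dicer1, detected genes of other pump subunits, and in each other list the called genes, the 4 of highest mean CPM and the 2 of largest change with a mean of at least 5 CPM, plus the 5 genes most like Fxyd2 by each measure. Some genes of the pump are not reported here. Alternatives were other scalings, dropping the filter or requiring 10 CPM in 3 libraries, DESeq2 1.42.0, limma-voom (limma 3.58.1), the title's L code as a covariate and leaving out each library. The meaning of the L code is not given. Python 3.11.15 with pandas 2.3.3 was used for tables.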

Additional observations from a re-analysis of the deposited data

Results flagged for a closer look

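Among 26 genes of the lists checked for a control library far from the other 3, 2 stood out by Dixon's criterion, and chance gives about 5% of such groups. Slc12a7 was low in control replicate 1, at 39.1 CPM against 53.5 to 55.7 CPM in the other controls. Atp2b1 was high in control replicate 4, at 355 CPM against 199.98 to 224 CPM in the others.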

How the results depend on the processing

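The log2 fold change of Fxyd2 was -2.88 and ranged from -3.13 to -2.69 over 18 alternatives. Leaving out each library gave -0.68 to 0.30 for Fxyd5, -0.032 to 1.14 for Atp1b3 and 0.24 to 1.11 for Atp1b1, with Dicer1-deleted replicate 2 behind the lowest value of each. The sign of Fxyd5 also turned with no scaling (-0.07), with limma-voom (-0.12) and with the L code as covariate (-0.28). Fxyd6 was fitted only without the filter, where its 1 read pair gives no usable fold, and Atp1b1 could not be fitted under the 10 CPM filter, with read pairs or without control replicate 3.

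Against 4 genes called in edgeR, no filter gave 42, the 10 CPM filter 1, limma-voom 2, DESeq2 405 (150 higher and 255 lower) and the L code as covariate 0. Leaving out each library gave 0 to 3 genes. It gave 0 without Dicer1-deleted replicate 1 or any 1 control library, 3 without Dicer1-deleted replicate 2 and 2 without replicate 3. Of alternatives chosen after seeing the data, a transcript length correction gave 10 and DESeq2 without Dicer1-deleted replicate 2 gave 338. The sodium and potassium transport genes, with 0 called in edgeR, had 1 without the filter (Slc9a4) and 3 in DESeq2. Fxyd2 was not called under the 10 CPM filter or with the L code as covariate.

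In controls Fxyd2 was at 237 RPKM, at 60.8 CPM per kilobase of all exons and at 144 CPM per kilobase of the longest transcript. Fxyd5 reached 630 CPM per kilobase of its longest transcript and Atp1b3 28.2 CPM per kilobase of all exons. Rank correlation shared 0 and 1 of the 5 genes most like Fxyd2, over all libraries and within groups. No paired analysis was possible because the labels number the samples once through the series, and the replicate numbers used here were given within each group only as names.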
